A study of Rattus norvegicus with 4 samples.

Results

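Hdc, Slc18a2 and Ddc are the genes that make histamine and related amines and load them into secretory vesicles. They were taken as every probe set, that is every group of short probes designed for a transcript, whose platform gene symbol is Hdc, Slc18a2 or Ddc, which gave 3 of 10411 named genes and 5 of the 15866 probe sets on the array. Hdc had 1 probe set, Slc18a2 had 2 and Ddc had 2. The genes were chosen by their role in histamine formation and amine storage, with their lower or similar signal on the octreotide LAR chips already known from these same chips. Their levels and differences are therefore given as a description and carry no test. Gene expression was measured on Affymetrix RAE230A arrays in mucosa scraped from the gastric corpus of female Sprague-Dawley rats, aged 8 weeks per the labels, after an overnight fast. Octreotide LAR, a slow-release depot of the somatostatin analogue octreotide, was given at 5 mg per animal and the tissue is labelled 21 days; RNA of its 6 rats was pooled in pairs onto 3 chips, called pools 1, 2 and 3. The vehicle group received the depot's carrier alone, and RNA of its 8 rats was pooled onto 1 chip. The vehicle sample's title gives vehicle, while its source name mentions octreotide LAR; the title was followed. The labels describe the treated tissue as scraped oxyntic mucosa and the vehicle tissue as scraped gastric mucosa of the corpus.

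Histamine is the paracrine signal that drives acid secretion, and in the rat stomach most of it is made and stored by enterochromaffin-like (ECL) cells. Gastrin acts on ECL cells to raise histamine synthesis and release, and somatostatin, acting through its receptor Sstr2, restrains both. Hdc, histidine decarboxylase, forms histamine from histidine in a single step that depends on vitamin B6. Slc18a2, the vesicular monoamine transporter VMAT2, exchanges protons for amines to fill secretory granules. Ddc, aromatic L-amino acid decarboxylase, is a related vitamin B6 enzyme that forms dopamine and serotonin and does not act on histidine; it is found in many endocrine cells that take up amine precursors.

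Because Hdc and Slc18a2 were both low on all treated chips, their promoter windows are shown side by side. Each window runs from 250 bases before to 50 bases after a transcription start given by RefSeq on assembly GRCr8, 5′ to 3′ on the gene's strand. The window of Hdc is chr3:134318655-134318954 on the minus strand and starts from the outer end of the annotated gene. The window of Slc18a2 is chr1:268399771-268400070 on the plus strand, and its start lies 206 bases inside the outer end of the annotated gene. Capitals mark matches, on either strand, to the cyclic AMP response element TGACGTCA and its core TGACG, the AP-1 site TGANTCA, the GC box GGGCGG, the CCAAT box CCAAT and the TATA box TATAAA.
Hdc promoter: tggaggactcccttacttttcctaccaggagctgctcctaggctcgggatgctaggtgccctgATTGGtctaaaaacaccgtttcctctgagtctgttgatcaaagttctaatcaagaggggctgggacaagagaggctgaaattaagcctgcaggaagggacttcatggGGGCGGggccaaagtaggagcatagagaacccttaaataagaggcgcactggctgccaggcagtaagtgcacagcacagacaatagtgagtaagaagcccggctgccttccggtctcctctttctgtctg
Slc18a2 promoter: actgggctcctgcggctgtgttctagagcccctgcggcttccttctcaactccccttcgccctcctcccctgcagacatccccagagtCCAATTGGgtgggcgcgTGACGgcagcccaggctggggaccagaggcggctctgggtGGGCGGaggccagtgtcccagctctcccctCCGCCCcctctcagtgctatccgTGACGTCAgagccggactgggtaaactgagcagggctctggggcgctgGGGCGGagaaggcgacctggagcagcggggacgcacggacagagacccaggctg

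The Slc18a2 window held 1 full cyclic AMP response element, the binding site of CREB family factors, from base -52 to base -45 counted from the start as 0. Of all 33469 promoter windows of this length, 1.83% held that motif. It also held 3 GC boxes, the site of Sp1, against 1 in the Hdc window, and 33.1% of all windows held at least 1. The core TGACG matched 3 times in the Slc18a2 window, of which 2 matches lie inside the full element, and 0 times in the Hdc window; 21.2% of all windows held it. The Slc18a2 window had 2 overlapping CCAAT matches and the Hdc window 1, a motif present in 37.5% of windows. Neither window held the AP-1 site or the TATA box, found in 7.33% and 14.2% of windows. The GC share was 52.7% in the Hdc window and 68.3% in the Slc18a2 window, against a median of 51.7% over all windows. Ddc has 3 start windows in the RefSeq table, on chromosome 14; none held the cyclic AMP response element, its core or the GC box, and 1 held an AP-1 site.

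Signals on the array are linear intensities per probe set. The trimmed mean per chip ran from 496.8 to 497.2 over the 4 chips, and the median lay between 223.7 and 233.4 on the treated chips and at 225.8 on the vehicle chip. Differences are given as octreotide LAR minus vehicle on the log2(signal + 16) scale. Probe sets with a mean level under the 40th percentile, about 144.7 signal units, were not tested, which left 9520. Of the members, 4 of 5 probe sets passed that filter; the dimmer Ddc probe set did not. The proton pump subunits Atp4a and Atp4b, which define parietal cells, were between 23835.1 and 42462.4 on the treated chips and at 26692.5 and 39973.9 on the vehicle chip, so the tissue carried the markers of oxyntic mucosa.

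Hdc had a signal of 1074.6, 1323.2 and 1121.5 on octreotide LAR pools 1, 2 and 3, against 3537.3 on the vehicle chip (probe set 1370491_a_at). All treated pools were far below the vehicle pool, and the groups did not overlap. The treated mean was 1173.1 ± 132.1 (SD, n = 3), 33.2% of the vehicle signal, a mean log2 difference of -1.59. The highest treated pool was still 2.67-fold below vehicle, while the treated pools differed among themselves by 1.23-fold at most. On single pools the log2 difference was -1.70, -1.41 and -1.64. Among the 9520 probe sets tested, the mean difference of Hdc was the second lowest, after that of Cym, the milk-clotting protease of chief cells. As this is RNA of whole mucosa, fewer ECL cells and less Hdc RNA per cell cannot be told apart.

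Slc18a2 had 918.7, 1168.2 and 945.5 on octreotide LAR pools 1, 2 and 3 at its brighter probe set, against 2236.6 on the vehicle chip (1369131_at). Here too every treated pool lay below vehicle. The treated mean of 1010.8 ± 137.0 (SD, n = 3) was 45.2% of the vehicle signal, a mean log2 difference of -1.14, and the highest treated pool was 1.91-fold below vehicle. The dimmer probe set had 242.5, 498.6 and 411.7 on octreotide LAR pools 1, 2 and 3, against 669.5 on the vehicle chip (1369132_at). It was lower on all treated pools as well, but pool 1 stood apart from the other pools. Its treated mean was 384.3 ± 130.2 (SD, n = 3), a mean log2 difference of -0.83 (-1.41, -0.41 and -0.68 on pools 1, 2 and 3), and -0.55 without pool 1. The treated pools differed by up to 2.06-fold at this probe set and by 1.27-fold at the brighter one. Both probe sets are annotated to the same Slc18a2 sequence record, so they are not independent measurements of the gene.

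Ddc had 163.2, 125.7 and 205.7 on octreotide LAR pools 1, 2 and 3, against 198.7 on the vehicle chip (1368064_a_at). Pools 1 and 2 were below vehicle and pool 3 slightly above it, so the groups overlapped. The treated mean was 164.9 ± 40.03 (SD, n = 3), 83.0% of the vehicle signal, a mean log2 difference of -0.27 that is smaller than the SD of 0.32 between treated pools. Leaving out pool 1, 2 or 3 in turn gave mean differences of -0.28, -0.11 and -0.43. The dimmer Ddc probe set had 22.4, 68.7 and 100.0 on octreotide LAR pools 1, 2 and 3, against 90.7 on the vehicle chip (1375317_at). It overlapped vehicle in the same way and depended on pool 1, with a mean log2 difference of -0.56 over all pools and -0.11 without that pool. Ddc was dim on this array: only 6.2% of the probe sets tested had a lower mean level than its brighter probe set.

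**Figure D1:**
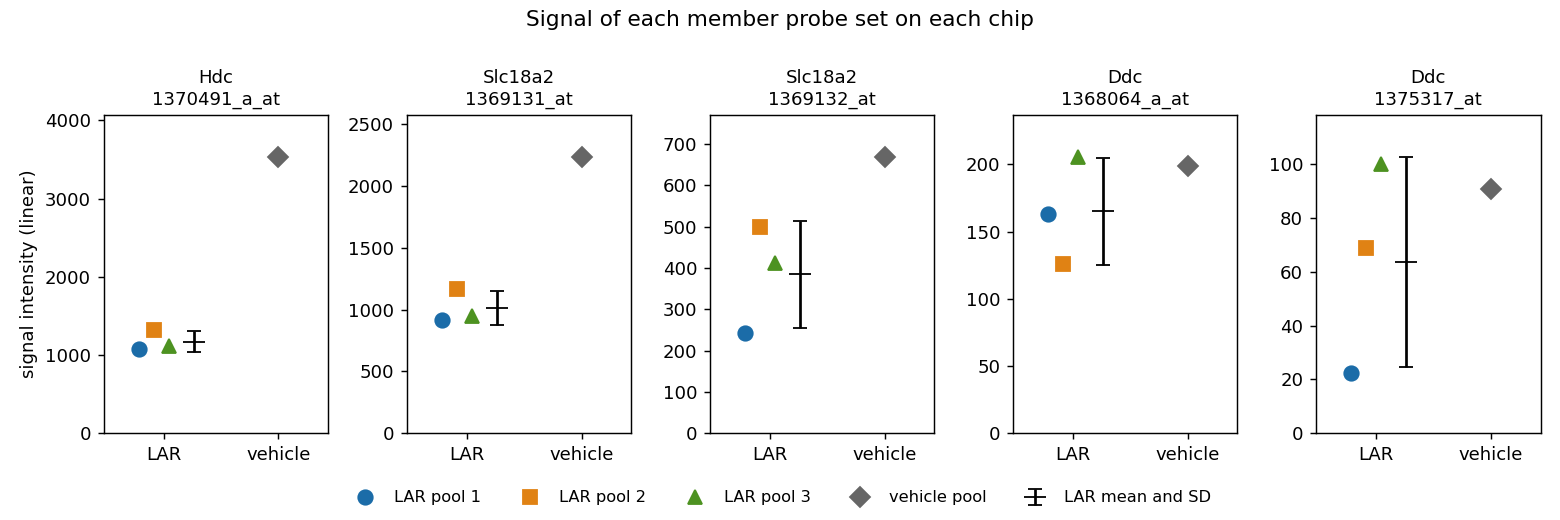
Linear signal intensity (vertical axis, from 0, scaled separately in each panel) of the 5 probe sets of Hdc, Slc18a2 and Ddc. Coloured points are the 3 octreotide LAR pools, the black bar is their mean with SD, and the grey diamond is the single vehicle pool. The vehicle pool lies above all treated pools for Hdc and both Slc18a2 probe sets and within the treated range for both Ddc probe sets.

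Of the 4 member probe sets that passed the filter, 3 had the vehicle chip above all treated chips, a pattern that 24.0% of all probe sets tested showed. Hdc was the only member at least 2-fold below vehicle on all treated chips, which held for 5 of the 9520 probe sets, or 0.0525%. Since this contrast was known when the genes were chosen, nothing is read from these shares. The spread of Hdc between treated pools was ordinary for the array, at an SD of 0.16 on the log2 scale against a median of 0.182 over all probe sets tested. That of the brighter Slc18a2 probe set was 0.19. The dimmer Slc18a2 probe set, at 0.51, varied more than 95.9% of probe sets tested. Over all probe sets tested the median log2 difference was -0.003, and the 1st and 99th percentiles of the differences were -0.70 and 0.80.

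**Figure D2:**
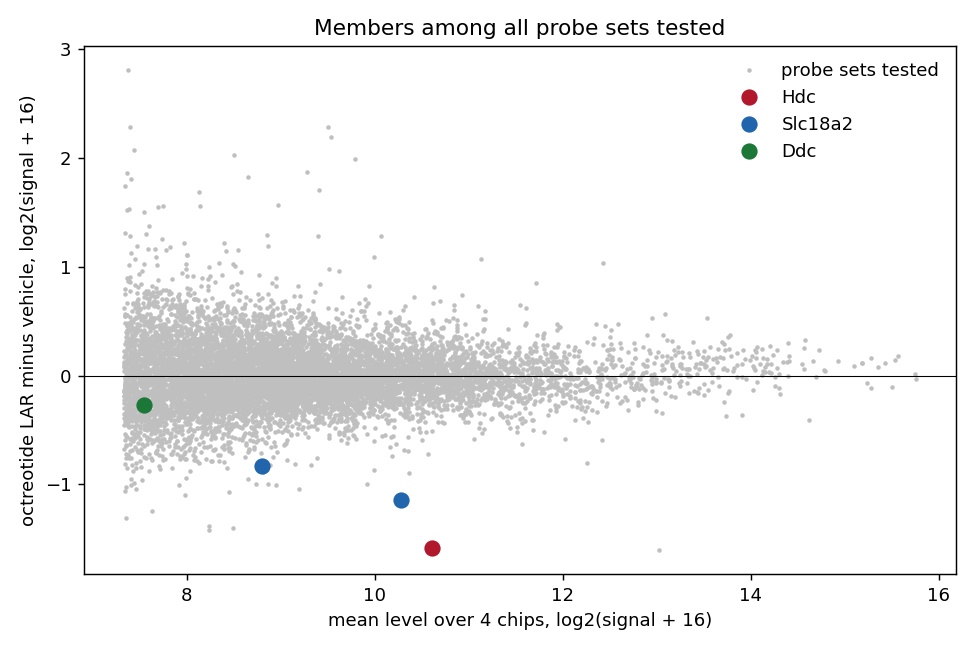
Mean log2 difference of octreotide LAR against vehicle (vertical axis) by mean level over the 4 chips (horizontal axis, log2 of signal + 16) for the 9520 probe sets tested, in grey, with the 4 member probe sets tested in colour. Hdc at -1.59 and Slc18a2 at -1.14 and -0.83 lie below the bulk of probe sets, and Ddc at -0.27 lies within it.

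The members were also compared with each other by pool. The log2 difference of Hdc was more negative than that of the brighter Slc18a2 probe set by 0.44, 0.48 and 0.42 on pools 1, 2 and 3 (mean gap -0.44 ± 0.03, SD, n = 3). Against the dimmer Slc18a2 probe set the gap was -0.30, -0.99 and -0.96, so its evenness over pools held at the brighter probe set and not at the dimmer one. The 3 probe sets of Hdc and Slc18a2 ranked the treated pools alike, with pool 1 lowest, pool 3 next and pool 2 highest, an order shown by 19.4% of all probe sets tested. Ddc ranked them otherwise, with pool 3 highest at both probe sets. The gap between Hdc and Ddc was -1.44, -0.81 and -1.69 on pools 1, 2 and 3. All these gaps share the single vehicle chip and are given without a test.

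Chga and Chgb, chromogranins of the granules in which ECL and other endocrine cells store their products, were also lower on every treated pool. Chga had 4231.6, 3895.9 and 4660.1 on octreotide LAR pools 1, 2 and 3, against 7406.7 on the vehicle chip, which are log2 differences of -0.81, -0.92 and -0.67. Chgb had 820.7, 802.1 and 763.7 on octreotide LAR pools 1, 2 and 3, against 1607.0 on the vehicle chip, which are log2 differences of -0.96, -0.99 and -1.06. Neither passed the limma test over all probe sets (adjusted p = 0.151 for Chga and 0.105 for Chgb). Without pool 1, 2 or 3 in turn, the mean log2 difference was -0.80, -0.74 and -0.86 for Chga and -1.02, -1.01 and -0.97 for Chgb. Both passed in those fits, but such fits keep fewer treated chips and reuse the same vehicle chip. They also called more probe sets over the whole array, so passing there was not read as support. Hdc was lower than Chga by a further 0.90, 0.48 and 0.98 on pools 1, 2 and 3, and lower than Chgb by a further 0.75, 0.42 and 0.59. The brighter Slc18a2 probe set differed from Chgb by -0.31, 0.06 and -0.17 on the same pools, so neither gene was the lower of this pair on every pool.

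Among the 7150 named genes tested, the 5 nearest to each member were found by the Euclidean distance between their 3 log2 differences, pools 1 to 3 against vehicle. Nearest to Hdc were Cela2a, Cym, Cel, Slc18a2 and Cpa1, at distances of 0.42 to 0.91, against a median of 2.77 over all genes. Cela2a, Cel and Cpa1 are digestive enzymes best known from the exocrine pancreas. Cela2a, an elastase, had 225.5, 267.8 and 174.2 on octreotide LAR pools 1, 2 and 3, against 612.5 on the vehicle chip. Cym had 3952.1, 8203.8 and 7560.9 on octreotide LAR pools 1, 2 and 3, against 19071.1 on the vehicle chip.

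Nearest to the brighter Slc18a2 probe set was Chgb, at a distance of 0.36. Snhg11, a non-coding RNA, Cyp2a3, a cytochrome P450, Smim13, and Abca3, a lipid transporter, followed at distances of 0.39 to 0.49. Abca3 had 766.6, 956.7 and 855.1 on octreotide LAR pools 1, 2 and 3, against 1572.4 on the vehicle chip, and kept the same order of pools as Slc18a2. Ddc had far closer neighbours, with Mmp24, Arf6, Ip6k2, Bckdha and Mta3 at distances of 0.06 to 0.11. Within a distance of 0.5 there were 994 genes for Ddc, 5 for Slc18a2 and 1 for Hdc. These distances describe 3 pools set against the same vehicle chip. Because most genes lay close to no difference, the median distance and these counts largely follow the size of each member's own difference. No shared behaviour is read from them.

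**Figure D3:**
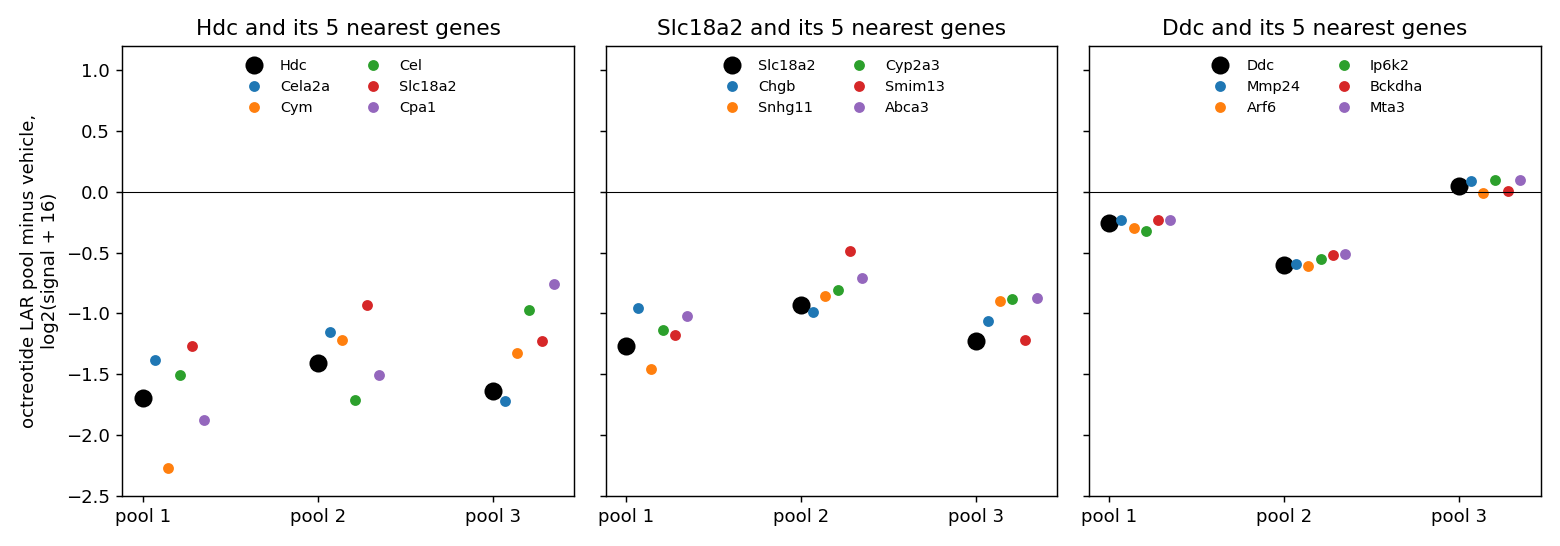
Log2 difference of each octreotide LAR pool against the vehicle pool (vertical axis) for each member's brightest probe set (large black points) and its 5 nearest genes (small coloured points, shifted sideways for legibility). The genes nearest to Hdc and Slc18a2 lie below 0 on all 3 pools, and Ddc and its neighbours lie near 0 on pool 3.

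Other genes of the amine pathway were taken from 7 lists. Of their 105 genes, 81 had a named probe set and 47 of those passed the filter. The limma test called 0 of the 47 in either direction, where it called 0.014% of all genes tested lower and 0.112% higher. At an unadjusted p under 0.05, 3 of the 47 were lower and 2 higher, against 4.55% of all genes tested in either direction. The count was 1 without pool 1 (Klf4) and 1 without pool 2 (Atp6v0e1). Their median log2 difference was 0.00, against -0.001 over all genes tested. The mean was lower on the treated chips for 23 of the 47. The vehicle chip lay above all treated chips for 16 of the 47, or 34.0%, against 24.0% of all genes tested. It lay below all of them for 12 of the 47, against 25.2% of all genes tested.

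Genes that remove histamine or sense it had 5 of 11 members tested, and 0 were called in either direction (median log2 difference 0.14). Aoc1, diamine oxidase, which breaks histamine down outside cells, had 356.3, 350.3 and 347.1 on octreotide LAR pools 1, 2 and 3, against 215.5 on the vehicle chip. All treated pools lay above vehicle, by a mean log2 difference of 0.67 (95% interval 0.09 to 1.24), which did not pass over all probe sets (limma adjusted p = 1.0, unadjusted p = 0.0263). Aldh2, an aldehyde dehydrogenase that clears aldehydes left by amine oxidation, had a log2 difference of 0.23, and Aldh1a1, a retinal dehydrogenase, one of -0.11. Hnmt, which inactivates histamine by methylation inside cells, had at most 57.0 units on the treated chips and 48.2 on the vehicle chip at its brighter probe set and was not tested. The receptor Hrh2, through which histamine stimulates parietal cells, was also too dim to test, with 9.5, 34.7 and 38.0 on octreotide LAR pools 1, 2 and 3, against 10.5 on the vehicle chip.

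Of the other amine-forming enzymes, 3 of 13 were tested and 0 were called (median log2 difference 0.17). Odc1, which makes the polyamine putrescine, had a log2 difference of -0.13, Amd1, which serves polyamine synthesis, one of 0.26 and Csad, which serves taurine synthesis, one of 0.17. Th, Dbh and Pnmt, the enzymes of catecholamine synthesis, all lay under the filter. The serotonin-forming hydroxylases were not analysed here. Of the genes that supply enzyme cofactors, 5 of 10 were tested and 0 were called (median log2 difference -0.11). Gchfr, a regulator of tetrahydrobiopterin synthesis, had 245.7, 310.5 and 192.1 on octreotide LAR pools 1, 2 and 3, against 152.8 on the vehicle chip, a log2 difference of 0.63 (95% interval -0.11 to 1.37). Gch1, the entry enzyme of that pathway, had a log2 difference of -0.27 and Qdpr, which regenerates the cofactor, one of -0.13.

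None of the 12 other amine and transmitter transporters could be tested: 9 had a named probe set and all 9 lay under the filter. They include Slc18a1, the other vesicular monoamine transporter, with 28.1, 54.9 and 30.9 on octreotide LAR pools 1, 2 and 3, against 50.4 on the vehicle chip. Slc6a4, the serotonin transporter, had 132.0, 17.0 and 111.2 on the treated pools, against 94.4 on the vehicle chip. Slc18a2 was thus the only amine transporter of the list and members that passed the filter.

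Subunits of the vacuolar proton pump, which acidifies the vesicles and so powers Slc18a2, had 14 of 18 members tested and 0 called (median log2 difference -0.03). At an unadjusted p under 0.05, 3 of the 14 were lower and 0 higher, against 4.55% of all genes tested in either direction. Atp6v0e1 had 2048.2, 3311.0 and 2880.7 on octreotide LAR pools 1, 2 and 3, against 4162.8 on the vehicle chip, a log2 difference of -0.63 (limma adjusted p = 0.987). Without pool 1, 2 or 3 in turn, that difference was -0.43, -0.77 and -0.67. Atp6v1g1 had 382.2, 456.1 and 431.5 on octreotide LAR pools 1, 2 and 3, against 652.8 on the vehicle chip, a log2 difference of -0.61 (limma adjusted p = 0.987). Atp6v1d had a log2 difference of -0.39. Atp6v0c, the proton-carrying ring subunit, had -0.07 with a 95% interval from -0.41 to 0.27, and Atp6v1a, the catalytic subunit, had 0.11 with an interval from -0.30 to 0.51.

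Of the ligands, receptors and kinases that signal to the ECL cell, 10 of 20 were tested and 0 were called (median log2 difference -0.05). Gast, gastrin, which is made mainly in the antrum, had 1160.8, 611.1 and 696.7 on octreotide LAR pools 1, 2 and 3, against 664.9 on the vehicle chip; pool 1 was high and the groups overlapped. Cckbr, the gastrin receptor, had a log2 difference of -0.47 (95% interval -1.18 to 0.23). Gal, the neuropeptide galanin, had -0.48, and Prkca, a protein kinase C, had 0.29. Of the transcription factors, 10 of 21 were tested and 0 were called (median log2 difference 0.13). Klf4, reported to repress the HDC promoter in human gastric cancer cells and also a factor of mucous and squamous epithelium, had 3094.5, 3685.7 and 3230.6 on octreotide LAR pools 1, 2 and 3, against 2115.8 on the vehicle chip. Its log2 difference was 0.65 (limma adjusted p = 0.444), and 0.70, 0.58 and 0.67 without pool 1, 2 or 3 in turn. Creb1, which binds the cyclic AMP response element, had 426.6, 264.0 and 354.6 on octreotide LAR pools 1, 2 and 3, against 232.6 on the vehicle chip, a log2 difference of 0.53 (95% interval -0.13 to 1.18). Isl1, a factor of endocrine cells, had a log2 difference of 0.29.

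**Figure D4:**
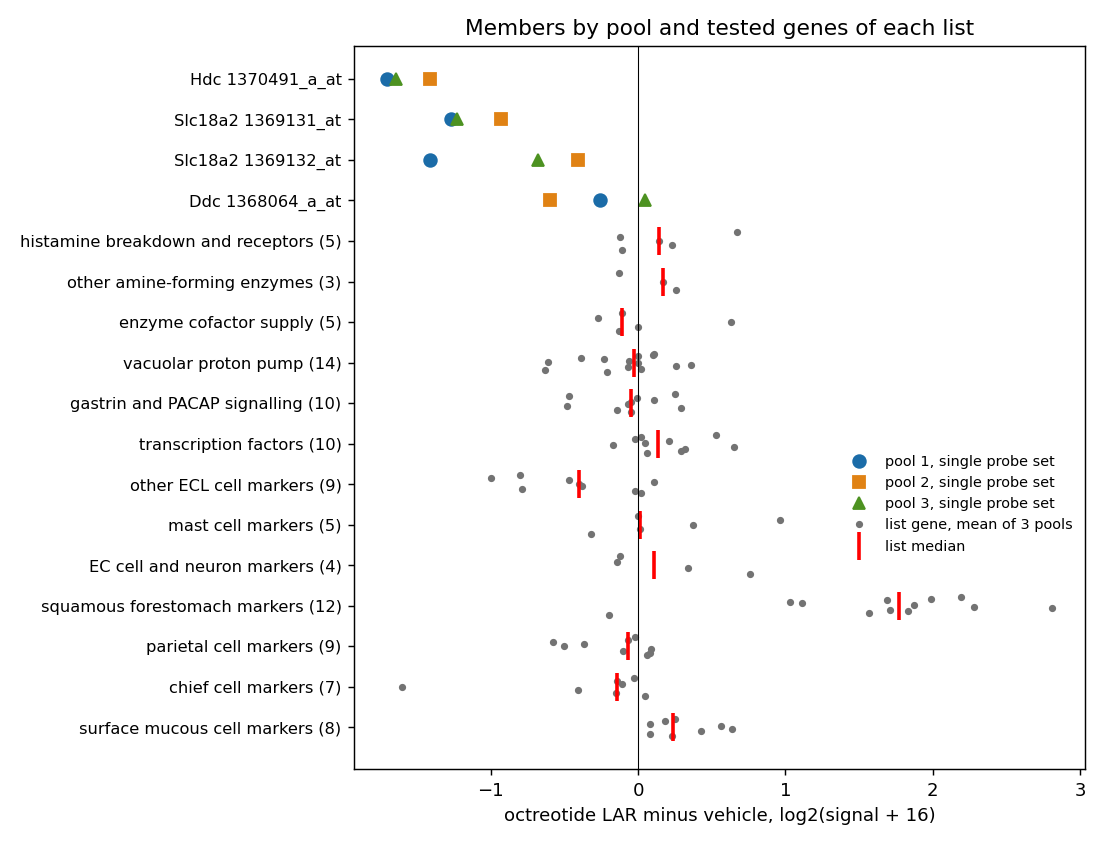
Octreotide LAR minus vehicle on the log2(signal + 16) scale (horizontal axis). The upper 4 rows show the tested member probe sets on pools 1, 2 and 3, and the other rows show the mean difference of each tested gene of a list (grey points, number in brackets) with the list median (red bar). The members Hdc and Slc18a2 lie left of 0 on all pools, the pathway lists centre near 0, and the squamous markers lie mostly right of 0.

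Markers of the cells that could carry these transcripts were read on the same chips. Of the other ECL cell markers, 9 of 13 were tested and 0 were called. By their means 7 were lower and 2 higher, and the median log2 difference was -0.40. The vehicle chip lay above all treated chips for 6 of the 9, against 24.0% of all genes tested. It lay below all of them for 0, against 25.2%. The 3 ECL markers under the filter were not part of these counts and went different ways. Adcyap1r1 had 152.3, 56.9 and 60.3 on octreotide LAR pools 1, 2 and 3, against 24.5 on the vehicle chip. Scg2 had a log2 difference of 0.12 and Pth1r one of -0.67. At an unadjusted p under 0.05, 2 of the 9 were lower (Chga and Chgb), against 4.55% of all genes tested in either direction. Ptprn, a granule membrane protein, had 156.2, 338.0 and 301.3 on octreotide LAR pools 1, 2 and 3, against 446.7 on the vehicle chip, a log2 difference of -0.79 (95% interval -1.58 to 0.01). Sstr2, the receptor of octreotide, had 222.7, 342.8 and 139.4 on octreotide LAR pools 1, 2 and 3, against 203.9 on the vehicle chip. The summed signal of the 12 ECL markers on the array was 12862.8 to 14254.3 on the treated chips, against 17982.3 on the vehicle chip. Without Chga and Chgb, the other 10 summed to 7810.5 to 8830.5 on the treated chips, against 8968.6 on the vehicle chip. Cpe, a prohormone-processing carboxypeptidase bright on all chips, made up most of that sum. It had 5397.0, 5458.0 and 6405.2 on octreotide LAR pools 1, 2 and 3, against 5816.9 on the vehicle chip, a log2 difference of -0.02. The sum therefore says little about the dimmer markers.

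Mast cells also make and store histamine with Hdc and Slc18a2. Of their 13 markers 12 had a named probe set, 5 were tested and 0 were called (median log2 difference 0.01). Their summed signal was 1409.3 to 1734.3 on the treated chips, against 1493.0 on the vehicle chip. Fcer1g was the largest part of that sum, at 553.1, 483.7 and 589.4 on octreotide LAR pools 1, 2 and 3, against 537.3 on the vehicle chip. The mast cell protease genes Mcpt4 and Mcpt10 were at or below 8.3 units on all chips. Mcpt1, a mucosal mast cell protease, had 145.4, 195.3 and 286.0 on octreotide LAR pools 1, 2 and 3, against 95.6 on the vehicle chip. All treated pools lay above vehicle, by a mean log2 difference of 0.96 (95% interval 0.09 to 1.83), which did not pass the limma test over all probe sets. Mcpt1 passed the filter through its treated signals. Cpa3, the mast cell carboxypeptidase, had 175.3, 164.4 and 218.9 on octreotide LAR pools 1, 2 and 3, against 185.1 on the vehicle chip, and overlapped. Of the 5 tested, 2 lay above vehicle on all treated pools (Mcpt1 and Tpsb2) and 1 below (Hpgds, log2 difference -0.32). Under the filter, Kit, Fcer1a and Ms4a2 were lower on all treated pools and Cma1 was higher. Of 15 markers of enterochromaffin cells and enteric neurons, other amine-storing cells, 13 had a named probe set, 4 were tested and 0 were called (median log2 difference 0.11). Nos1, the nitric oxide synthase of enteric neurons, had 138.4, 317.5 and 189.2 on octreotide LAR pools 1, 2 and 3, against 113.6 on the vehicle chip, a log2 difference of 0.76 (95% interval -0.15 to 1.67). Like Mcpt1, Nos1 passed the filter through its treated signals, and it enters the median of the 4 genes tested. The summed signal of the 13 was 1658.6 to 1851.8 on the treated chips, against 1713.4 on the vehicle chip.

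Markers of squamous epithelium, which lines the forestomach beside the oxyntic mucosa, differed between the treated chips and the single vehicle chip. Of 19 markers 15 had a named probe set, 12 were tested, and 6 were called higher and 0 lower by the limma test, against 0.112% of all genes called higher. The lists were chosen with earlier results of these data known, so nothing is read from such shares of list genes. Those called higher were the keratins Krt1 and Krt10, the cornified envelope genes Loricrin and Sprr3, Krtdap of differentiating keratinocytes and the galectin Lgals7. The rise was not uniform over the list. Of the 12 tested, 11 exceeded vehicle in every treated pool, while Sbsn was lower in every one (mean log2 difference -0.20). Of the 3 markers too dim to test, Ivl was higher throughout, Krt4 was higher only in pool 1, and Tp63 was lower only in pool 2. Lgals7 and Sprr3, at 22.4 and 139.4 on the vehicle chip, passed the filter through their treated signals. So did the keratins Krt5, Krt14 and Krt15, at 100.2, 93.4 and 128.3 on the vehicle chip, and all of these enter the list medians. Without the filter on dim probe sets, all 6 calls were lost (limma adjusted p from 0.0946 to 0.704); Sprr3 and Krtdap were also lost with quantile normalization and with 75th percentile centring, and without a trend of the spread only Lgals7 of the 6 was called. The summed signal of the 15 squamous markers on the array was 7368.4 to 11480.3 on the treated chips, against 3518.6 on the vehicle chip, and was highest on pool 1. The median log2 difference was 2.07, 1.62 and 1.44 on pools 1, 2 and 3, while that of Hdc was -1.70, -1.41 and -1.64. Surface mucous cell markers were higher as well on every treated chip: all 8 tested lay above vehicle on all treated chips, against 25.2% of all genes tested, with a median log2 difference of 0.24 and 0 called. At an unadjusted p under 0.05, 3 of the 8 were higher, against 4.55% of all genes tested in either direction. They were Capn8, a calpain, Tff2, a trefoil peptide, and Lgals3, a galectin, with log2 differences of 0.64, 0.56 and 0.43. With the mean of its probe sets, Capn8 had a log2 difference of 0.34. Tff2 did not pass the limma test with all pools (adjusted p = 0.701). Its log2 difference was 0.59, 0.45 and 0.65 without pool 1, 2 or 3 in turn. The 9 tested parietal cell markers had a median of -0.07 and 0 called, with the potassium channel gene Kcnq1 at -0.58, and the 7 chief cell markers had a median of -0.14 and 0 called. The part of tissue make-up in the lower Hdc and Slc18a2 signals was not tested.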

How the data were processed

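Total RNA was isolated with an RNeasy kit and converted to biotin-labelled cRNA, per the labels' protocols. The authors deposited a linear signal intensity for each probe set on each chip; how it was summarised and scaled is not given in the sources used here. Nearly equal trimmed means (2% left out at each end) are what scaling each chip to 1 target would give, and such scaling hides a change in total RNA. All 4 chips shared 1 lot, 1 wash protocol and 1 hybridisation date, each on its own fluidics module, per the file headers. Signals were analysed as log2(signal + 16) without further normalization. The test was limma's (version 3.58.1, R 4.3.3; eBayes with trend, two-sided, Benjamini-Hochberg, threshold 0.05), 3 treated chips against 1; with 2 residual and 11.5 prior degrees of freedom, its spread comes from the treated chips, whose variation the lone vehicle chip was taken to share. Each treated chip holds other animals, so SDs span pools of 2 rats; the number of chips limits precision, and the vehicle value has no error.

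Of 15866 probe sets, 12783 named 1 gene (12748 updated by Entrez ID to GRCr8 names), 312 several, and 2771 were unnamed here. A gene was represented by its brightest probe set kept. Signal levels of different probe sets were used only to filter, to pick the brightest, to rank how dim a probe set was and to sum lists. Treatment differences of genes were compared as log2 differences and not as levels. The members and lists were chosen with earlier results of these data known. Named genes were drawn from the members, list genes past the threshold, the 3 of each list with the smallest p and the 5 nearest to each member, of which not all are printed; Atp6v0c, Atp6v1a, Cpe, Atp4a, Atp4b, Gast, Cpa3, Sstr2 and untested genes were added after their values were seen. Alternatives changed the pseudocount, filter, scaling, spread moderation, probe set summary and treated chips. Promoter windows came from RefSeq.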

Additional observations from a re-analysis of the deposited data

How the results depend on the processing

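No paired analysis was possible because the vehicle group has 1 chip and shares 1 replicate number with the treated group. The count of 10 called probe sets was 0 without the filter on dim probe sets, 5 with quantile normalization, 5 with 75th percentile centring and 1 without a trend of the spread, and ran from 31 to 55 when 1 treated pool was left out; it was 11 with a pseudocount of 1 and 7 with a pseudocount of 64. The count of 0 called pathway genes ran from 0 to 1 when 1 treated pool was left out and was 0 under the other alternatives. Leaving out a pool reduces the treated chips behind the spread and reuses the vehicle chip, so calls made only in those fits were not read as support. Under the changes of pseudocount, scaling and treated chips, the mean log2 difference of Hdc lay between -1.67 and -1.53, that of the brighter Slc18a2 probe set between -1.25 and -1.08 and that of the dimmer one between -1.04 and -0.55. Ddc lay between -0.43 and -0.11 at its brighter and between -0.90 and -0.11 at its dimmer probe set. Leaving out 1 of 3 pools can move a mean by only part of the SD between them, so these ranges do not show stability. Of the 42 list genes past the threshold or with the 3 smallest p of a list, 6 passed only when a treated pool was left out (Chga, Chgb, Cym, Klf4, Atp6v0e1 and Tff2). The members, and nearest genes outside these 42, were not part of this count. The squamous genes Krt1, Krt10, Loricrin, Lgals7, Sprr3 and Krtdap each lost their call under at least 1 alternative, the cause of which was not tested. With 1 vehicle chip, a peculiarity of that pool cannot be told apart from treatment.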
